A study of Homo sapiens with 8 samples.

Results

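Most heat shock proteins are chaperones that help newly made and damaged proteins to fold. The 10 genes described here encode cytosolic and mitochondrial members of this system, namely DNAJB4, DNAJB1, HSPA1A, HSPA1B, HSPH1, BAG3, HSP90AB1, HSPB1, HSPD1 and HSPE1. They were chosen by name, with earlier results of these data known. Their RNA was read in HCT116 and NCI-H716, 2 lines grown from human colorectal tumours. They were found by gene symbol in the HCT116 table and by gene identifiers paired with symbols in the NCI-H716 tables. All 10 were among the 63241 genes of the NCI-H716 tables, and 7 were among the 28043 genes used from the HCT116 table. That table covers chromosomes 1 to 8 and the start of chromosome 9, so DNAJB1, HSPH1 and BAG3 have NCI-H716 values only.

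Z325 is the compound ZINC000101867325, which the study picked by docking small molecules to the fibroblast growth factor receptors. RNA from about 100 cells per reaction was amplified as full-length cDNA and sequenced in 8 libraries. There were 4 groups of 2 libraries each, HCT116 control, HCT116 Z325, NCI-H716 control and NCI-H716 Z325. The sample labels call the treated libraries "Test", which is read as Z325 from the series description, and they give neither the dose nor the time of treatment for the sequenced cells, nor what the control cells received. Both lines are established cultures, so no transgene, host tissue or pooled donor enters the comparison. Nothing in the labels says that the 2 libraries of a group came from separate cultures, while the study calls them biological duplicates. The p-values therefore measure the spread between these libraries, which may be technical.

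In the cytosol, J-domain proteins (the HSP40 family, here DNAJB1 and DNAJB4) hand unfolded clients to the ATP-driven HSP70 chaperones (HSPA1A and HSPA1B), and nucleotide exchange factors such as HSPH1 and BAG3 release them. HSP90 (HSP90AB1) completes the folding of kinases and receptors, small heat shock proteins (HSPB1) hold aggregating proteins without ATP, and the HSPD1 and HSPE1 proteins form the folding chamber and lid inside mitochondria. Under proteotoxic stress the transcription factor HSF1 induces many of these genes by binding heat shock elements, which are inverted repeats of the letters GAA.

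The sequences below show where such repeats lie next to the genes whose levels follow. The 250 bases upstream of each RefSeq start (GRCh38.p14) were searched on both strands for GAANNTTC or TTCNNGAA, a pair of inverted units, and for GAANNTTCNNGAA or TTCNNGAANNTTC, a run of 3 units that contains overlapping pairs. All 10 genes were matched, with 16 start sites. A pair was found for 7 of the 10 genes, against 11.6% of all 35116 windows and 14% of the 27305 genes with a window. A run of 3 units was found for 2 genes, HSPD1 and HSP90AB1, against 0.557% of the genes with a window. Of the 16 member windows, 7 held a pair and 2 held a run, against 11.6% and 0.441% of all windows. No window of HSPE1, BAG3 or HSPH1 held these letters. The windows below run 5′ to 3′ on the gene's own strand, and capitals mark the bases of the match.
DNAJB4, chr1:78004830-78004859, plus strand: agcatttgctgTTCTAGAAagtacagagac
DNAJB1, chr19:14518456-14518485, minus strand: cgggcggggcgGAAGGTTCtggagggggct
DNAJB1, chr19:14518426-14518455, minus strand: ggcgggctctgGAAGCTTCcgccggacggg
HSPA1A, chr6:31815426-31815455, plus strand: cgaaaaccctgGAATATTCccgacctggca
HSPA1B, chr6:31827622-31827651, plus strand: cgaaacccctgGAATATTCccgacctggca
HSP90AB1, chr6:44247770-44247798, plus strand: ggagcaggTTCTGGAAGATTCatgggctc
HSP90AB1, chr6:44247823-44247851, plus strand: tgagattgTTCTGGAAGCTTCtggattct
HSPB1, chr7:76302480-76302509, plus strand: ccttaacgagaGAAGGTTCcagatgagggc
HSPD1, chr2:197500062-197500090, minus strand: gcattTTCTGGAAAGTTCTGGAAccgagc

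In the GENCODE v44 annotation, the HSPA1A, HSPA1B and HSPB1 matches lay between genes, and the matches of DNAJB4, DNAJB1 and HSP90AB1 lay in introns of those genes, upstream of an inner start. The HSPD1 match lay in an untranslated exon of HSPD1, next to HSPE1. It lay just upstream of the GENCODE start of HSPE1 at 197500140. The HSPE1 window, 197500129 to 197500378, was set from a RefSeq start further in and did not reach this match. HSPD1 and HSPE1 are read in opposite directions, and the HSPE1 start and the outer HSPD1 start, both from RefSeq, are 105 bases apart. The DNAJB4 match was 91 bases upstream of the inner of its 2 starts, which are 25764 bases apart, and the outer start had no match. HSPA1A and HSPA1B, 12195 bases apart, had the same 8 capital letters, 99 and 98 bases upstream of their starts. Their upstream windows were identical at 235 of 249 aligned bases (94.4%). A match describes the letters only, and binding was not measured.

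The libraries held from 3434620 to 13396225 counts in HCT116, over the listed genes, and from 10210243 to 19738848 in NCI-H716. The shallowest was HCT116 Z325 replicate 2, and the other 7 held at least 10210243. EPCAM, an epithelial surface marker, stood at 608 to 679 FPKM in HCT116 and 29.97 to 40.12 FPKM in NCI-H716, and the epithelial keratins KRT8 and KRT18 stood at 202 to 281 FPKM in NCI-H716. Of the other epithelial markers, VIL1 had at most 6 counts in any HCT116 library, and in NCI-H716 no library held more than 9 counts of CDH1, KRT20 or CDX1. COL3A1, a collagen gene on the fibroblast list, stood at 94.3 to 153 FPKM in NCI-H716, where COL1A1 had at most 1 count. In bulk libraries, fewer cells of a type and less RNA per cell cannot be told apart.

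Levels are given as CPM, counts scaled to a common library total after TMM normalization, and each line was tested alone with edgeR's quasi-likelihood test, adjusted by the Benjamini-Hochberg method over all genes tested. A gene is called at an adjusted p under 0.05. DNAJB4 was called in both lines, and none of the other members was called in either. That is 1 of 5 members tested in HCT116, where 5.78% of 6491 genes were called, and 1 of 10 in NCI-H716, where 0.502% of 14142 genes were called. At an unadjusted p under 0.05, 3 of 5 members in HCT116 and 5 of 10 in NCI-H716 passed, against 23.9% and 16.9% of all genes tested. The 3 in HCT116 were all higher with Z325, beside 11.2% of all genes. Those in NCI-H716 were 4 higher and 1 lower, beside 7.59% and 9.27% of all genes. With 2 libraries against 2, an exact permutation test of a single gene cannot go below p = 0.333, so no such test is given.

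**Figure D1:**
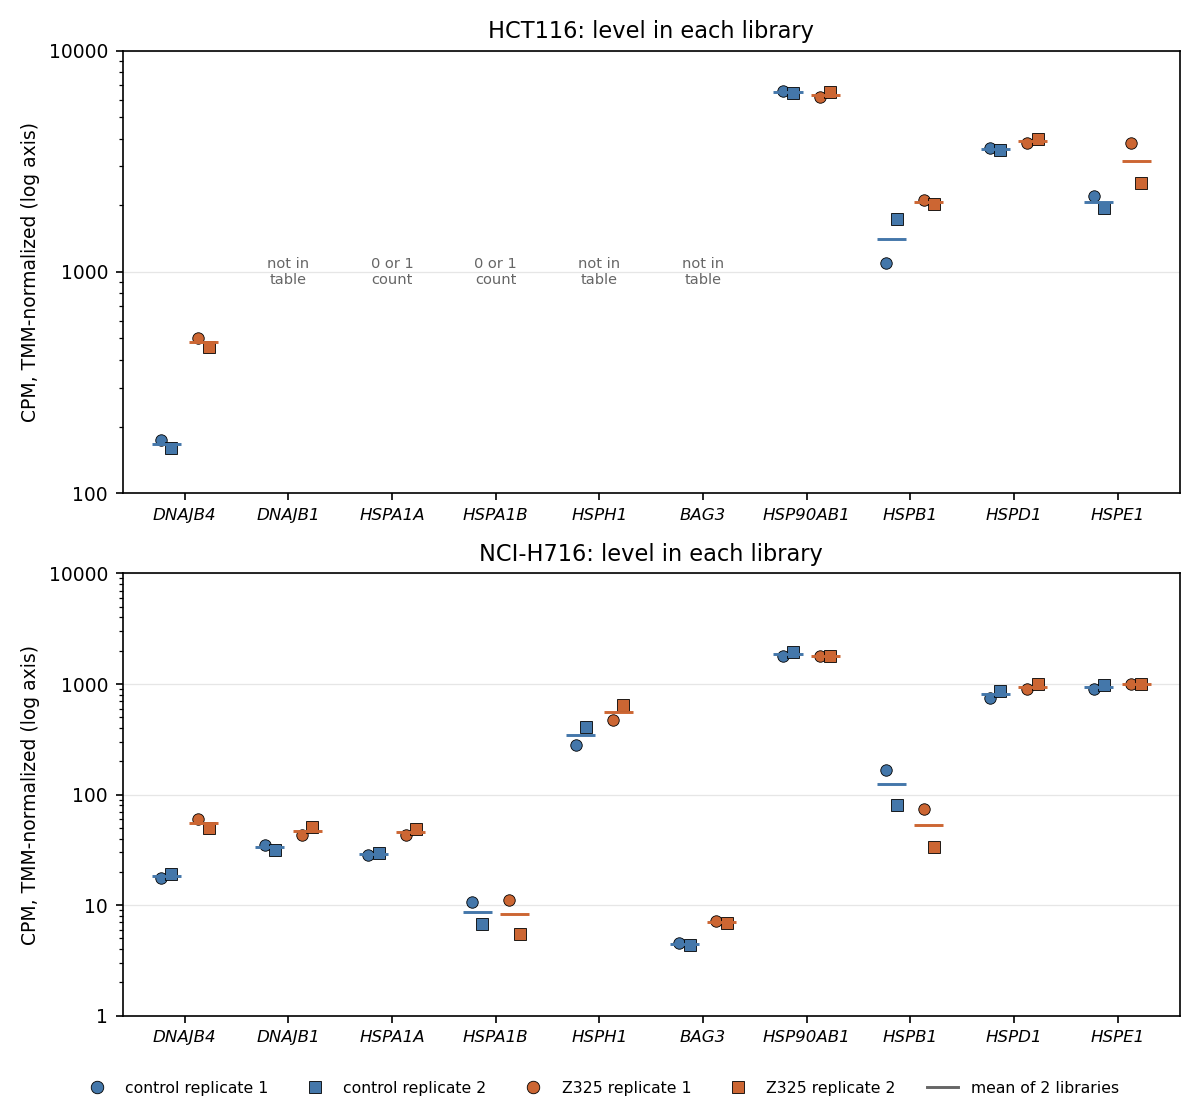
CPM (log axis) of each heat shock protein gene in the 4 HCT116 libraries (top) and the 4 NCI-H716 libraries (bottom), with control in blue, Z325 in orange, circles for replicate 1, squares for replicate 2 and a line at the mean of 2 libraries. The Z325 libraries of DNAJB4 stand at 458 and 502 CPM in HCT116 and at 50.2 and 59.8 CPM in NCI-H716, all above the controls of their line, while HSP90AB1 lies near 1 level in each line.

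DNAJB4 encodes a J-domain protein that stimulates the ATPase of HSP70. It is ENSG00000162616, on chromosome 1 from 77979175 to 78017964 on the plus strand. In HCT116 it stood at 174 and 160 CPM in control libraries and at 502 and 458 CPM in Z325 libraries. Both treated libraries were far above both controls, and the difference was much larger than the gap within either group. The log2 fold change was 1.52 (SE 0.13, edgeR adjusted p = 0.0016), a 2.87-fold rise. In NCI-H716 the same gene stood at 17.5 and 19.3 CPM in control and at 59.8 and 50.2 CPM in Z325 libraries. Again the groups did not overlap. The log2 fold change was 1.58 (SE 0.20, edgeR adjusted p = 0.00737), a 2.99-fold rise. Leaving out any 1 library kept the call in its line, with log2 fold changes from 1.44 to 1.61 in HCT116 and from 1.46 to 1.72 in NCI-H716.

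The NCI-H716 call of DNAJB4 was lost when both the unit and the test were changed. RSEM reports, for each library, an effective gene length averaged over the isoforms it assigned reads to, and the deposited FPKM divides by it. For DNAJB4 this was 2005 and 1885 bases in control and 2424 and 2347 bases in Z325 libraries. In limma on log2(FPKM + 1) the log2 fold change was 1.20 with an adjusted p of 0.181. The HCT116 value, from 1 fixed length, was 1.46 with a limma adjusted p of 0.0251. Over all genes, this limma setting called 6 in NCI-H716, against 71 in edgeR, and 47 in HCT116, against 375. About 2.1% of the exon bases of DNAJB4 are shared with GIPC2 on the same strand. The part of the length and that of the test in the lost call were not tested.

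DNAJB1, the main J-domain partner of stress-induced HSP70, was read in NCI-H716 only (ENSG00000132002, chromosome 19, 14514769 to 14560391, minus strand). It stood at 35.1 and 31.4 CPM in control and at 43.1 and 50.5 CPM in Z325 libraries. Both Z325 libraries were above both controls. In edgeR the log2 fold change was 0.49 (SE 0.19), with an edgeR adjusted p of 0.240. TECR, on the other strand, shares 6.4% of its exon bases. Side by side in NCI-H716, the log2 fold changes of the 2 J-domain genes were 1.58 for DNAJB4 and 0.49 for DNAJB1, and the difference between the genes was not tested.

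HSPA1A and HSPA1B encode nearly the same stress-induced HSP70 protein. They lie on chromosome 6, HSPA1A (ENSG00000204389) from 31815543 to 31817946 and HSPA1B (ENSG00000204388) from 31827738 to 31830254, both on the plus strand. In NCI-H716, HSPA1A stood at 28.3 and 29.5 CPM in control and at 42.8 and 49.1 CPM in Z325 libraries. The groups did not overlap. On the log2 scale the fold change was 0.67 (SE 0.19, edgeR adjusted p = 0.152). Without Z325 replicate 1 it was 0.77, with a lone Z325 library left. It passed with a replicate block (0.67, edgeR adjusted p = 0.000661), where 2397 of 14142 genes passed.

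HSPA1B stood at 10.7 and 6.69 CPM in control and at 11.1 and 5.48 CPM in Z325 libraries of NCI-H716. Each group held 1 higher and 1 lower library, so the groups overlapped. Z325 over control gave a log2 fold change of -0.09 (SE 0.38, edgeR adjusted p = 0.926), and it turned positive without control replicate 1 (0.30) or without Z325 replicate 2 (0.36). The split of reads between these copies is uncertain, because 65.3% of the distinct 150-base words of HSPA1A transcripts and 66.1% of those of HSPA1B are found in both. With their counts added together, the log2 fold change was 0.53 and the edgeR adjusted p was 0.196. HSPA1B also shares 36.6% of its exon bases with a long noncoding RNA on its own strand.

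In HCT116, HSPA1A had 0, 0, 0 and 1 counts and HSPA1B had 0, 1, 0 and 0 counts, in the order control replicates 1 and 2, then Z325 replicates 1 and 2. These counts are too few for a fold change, and neither gene passed the filter on low counts. The same held for most of their neighbourhood. Between 30000001 and 34000000 on chromosome 6, an interval chosen after these counts were seen, 65 genes had at least 400 counts over the 4 NCI-H716 libraries. Of these, 53 (81.5%) had at most 8 counts over the 4 HCT116 libraries, against 21 of 406 genes (5.17%) on the rest of the chromosome. BAG6, a chaperone cofactor in that interval, had 1 count in HCT116, and PFDN6, a prefoldin subunit there, had 0. HSF1, on another chromosome, was also listed at 0 in all 4 HCT116 libraries. The near-absence of HSPA1A and HSPA1B counts therefore moved with that of the genes around them, and whether the genes were transcribed in HCT116 cannot be read from this table.

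**Figure D2:**
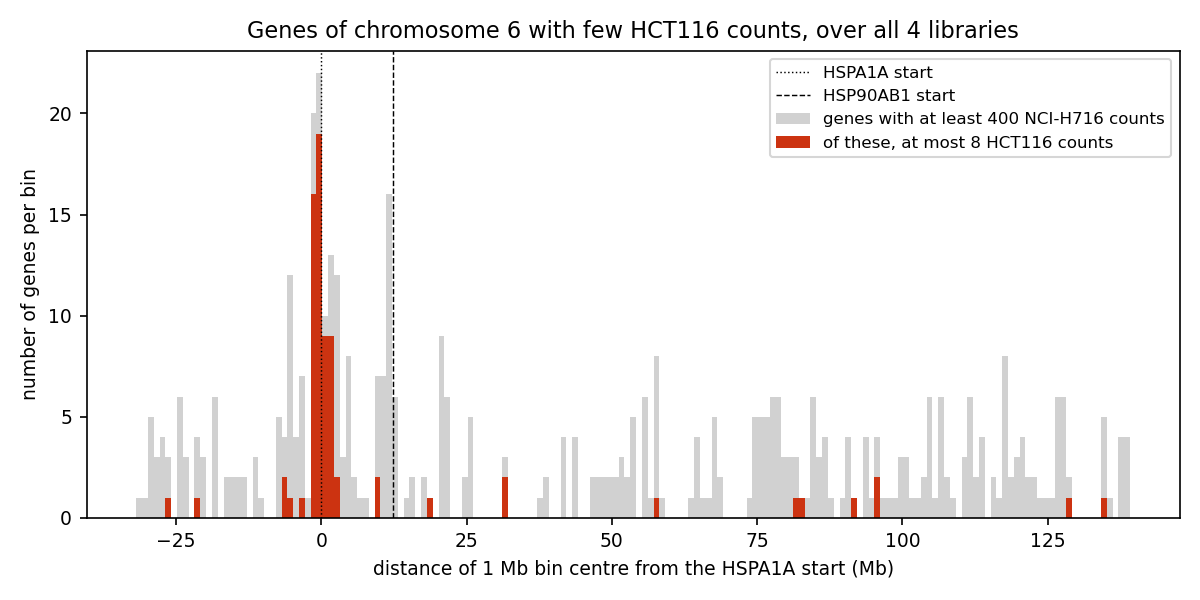
Genes of chromosome 6 in bins of 1 Mb, by the distance of the bin centre from the HSPA1A start (x axis, Mb), with the number of genes with at least 400 NCI-H716 counts (grey) and the number of these with at most 8 HCT116 counts (red). The red bars fill most of the bins around HSPA1A, where 53 of 65 genes had few HCT116 counts, while the HSP90AB1 start (dashed line) lies outside them.

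HSPH1 and BAG3 both act on the nucleotide cycle of HSP70 and were read in NCI-H716 only. HSPH1, the HSP110 chaperone (ENSG00000120694, chromosome 13, 31134973 to 31162388, minus strand), stood at 281 and 410 CPM in control and at 475 and 645 CPM in Z325 libraries. The groups did not overlap, but the gap within each group was wider than the gap between the nearest libraries of the 2 groups. On the log2 scale the fold change was 0.70 (SE 0.22, edgeR adjusted p = 0.174). It ranged from 0.46 without control replicate 1 to 1.01 without control replicate 2. Without Z325 replicate 1 it was 0.91, with a lone Z325 library left. With all 4 libraries it passed with no filter on low counts (0.72, edgeR adjusted p = 0.00424). It also passed with a replicate block (0.71, edgeR adjusted p = 1.5e-06), where 2397 of 14142 genes passed.

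BAG3, which joins HSP70 to small heat shock proteins and to autophagy, is ENSG00000151929 (chromosome 10, 119651380 to 119677819, plus strand). Over the 4 NCI-H716 libraries together it had the fewest counts of the members, with 60 and 45 counts in control and 95 and 136 in Z325 libraries. As CPM these were 4.54 and 4.36 in control and 7.25 and 6.84 with Z325. The replicates lay close together and the groups did not overlap. In edgeR the log2 fold change was 0.66 (SE 0.31, edgeR adjusted p = 0.315).

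HSP90AB1 encodes the constitutive cytosolic HSP90 (ENSG00000096384, chromosome 6, 44246166 to 44253888, plus strand). In HCT116 it stood at 6570 and 6470 CPM in control and at 6170 and 6500 CPM in Z325 libraries. The groups overlapped, and the log2 fold change was -0.04 (SE 0.12, edgeR adjusted p = 0.888). In NCI-H716 the values were 1810 and 1950 CPM in control and 1780 and 1790 CPM with Z325. Both Z325 libraries were below both controls, and the nearest pair was closer than the controls were to each other. In this line the log2 fold change was -0.08 (SE 0.15, edgeR adjusted p = 0.837).

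HSPB1, the small heat shock protein HSP27, was the member whose values went in opposite directions in the 2 lines (ENSG00000106211, chromosome 7, 76302673 to 76304295, plus strand). In HCT116 it stood at 1100 and 1730 CPM in control and at 2110 and 2030 CPM in Z325 libraries. Both Z325 libraries were higher, although the controls differed from each other by more than the higher control differed from the treated libraries. On the log2 scale the fold change was 0.55 (SE 0.20, edgeR adjusted p = 0.137). In NCI-H716 it stood at 167 and 80.2 CPM in control and at 73.5 and 33.4 CPM in Z325 libraries. Both treated libraries were lower there, with the lower control just above the higher Z325 library. The log2 fold change was -1.22 (SE 0.38, edgeR adjusted p = 0.175).

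Whether HSPB1 passed turned on the model, and the size of its change turned on single libraries. With all 4 libraries it passed in HCT116 with DESeq2 (0.58, adjusted p = 0.023). In NCI-H716 it passed with no filter on low counts (-1.20, edgeR adjusted p = 9.05e-07), but not with DESeq2 (adjusted p = 0.448). It also passed there with a replicate block (-1.22, edgeR adjusted p = 8.26e-17), where 2397 of 14142 genes passed. Each omission of a library left a lone library in its group. In HCT116 the log2 fold change of HSPB1 was 0.51 without Z325 replicate 1 and 0.61 without Z325 replicate 2. It was 0.26 without control replicate 1 and 0.90 without control replicate 2. For NCI-H716 it was -1.64 without control replicate 2 and -1.88 without Z325 replicate 1. The other omissions gave -0.58 without control replicate 1 and -0.74 without Z325 replicate 2. Its RSEM effective length in NCI-H716 was 561 and 532 bases in control and 462 and 320 bases in Z325 libraries, and on log2(FPKM + 1) limma gave -0.71. The part of the length in that difference was not tested.

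HSPD1 and HSPE1 encode the mitochondrial chaperonin HSP60 and its lid HSP10, on opposite strands of chromosome 2. In GENCODE the span of HSPE1 lies inside that of HSPD1. HSPD1 is ENSG00000144381 (197486584 to 197516737, minus strand), and HSPE1 is ENSG00000115541 (197500140 to 197503449, plus strand). In HCT116, HSPD1 stood at 3640 and 3570 CPM in control and at 3810 and 4000 CPM in Z325 libraries. Both treated libraries were above both controls by a small margin. In edgeR the log2 fold change was 0.11 (SE 0.12, edgeR adjusted p = 0.629). For NCI-H716 it stood at 754 and 861 CPM in control and at 896 and 992 CPM with Z325. The groups did not overlap there either, and the log2 fold change was 0.22 (SE 0.16, edgeR adjusted p = 0.504).

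HSPE1 stood at 2200 and 1940 CPM in HCT116 control and at 3820 and 2520 CPM in Z325 libraries. Both Z325 libraries were higher, and they differed from each other by more than the lower of them differed from the controls. On the log2 scale the fold change was 0.62 (SE 0.19, edgeR adjusted p = 0.10). With a lone Z325 library left, it fell to 0.27 without replicate 1 and was 0.91 without the shallow replicate 2. With all 4 libraries it passed with DESeq2 (0.65, adjusted p = 0.00862) and in edgeR with no filter (0.57, adjusted p = 0.02). In NCI-H716 the values were 904 and 979 CPM in control and 1010 and 996 CPM with Z325. The groups were separate but close, with a log2 fold change of 0.09 (SE 0.15, edgeR adjusted p = 0.797).

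The RNA levels of HSPD1 and HSPE1 were also set against each other. HSPE1 over HSPD1, as a ratio of FPKM levels, was 2.53 and 2.27 in control and 4.20 and 2.64 in Z325 libraries of HCT116. It was 7.30 and 7.30 in control and 7.37 and 6.71 in Z325 libraries of NCI-H716. Only Z325 replicate 1 of HCT116 stood far from its group. The HCT116 ratios rest on fixed gene lengths and those of NCI-H716 on RSEM effective lengths, so the lines are not compared. HSPE1 is uncertain as a single gene, because 10.5% of its exon bases are shared with the readthrough gene HSPE1-MOB4 and 7.4% with HSPD1. Pseudogenes and readthrough genes of HSPE1 held from 0.031% to 3.74% of the counts of HSPE1 and its copies together, and adding them left its HCT116 log2 fold change at 0.62.

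**Figure D3:**
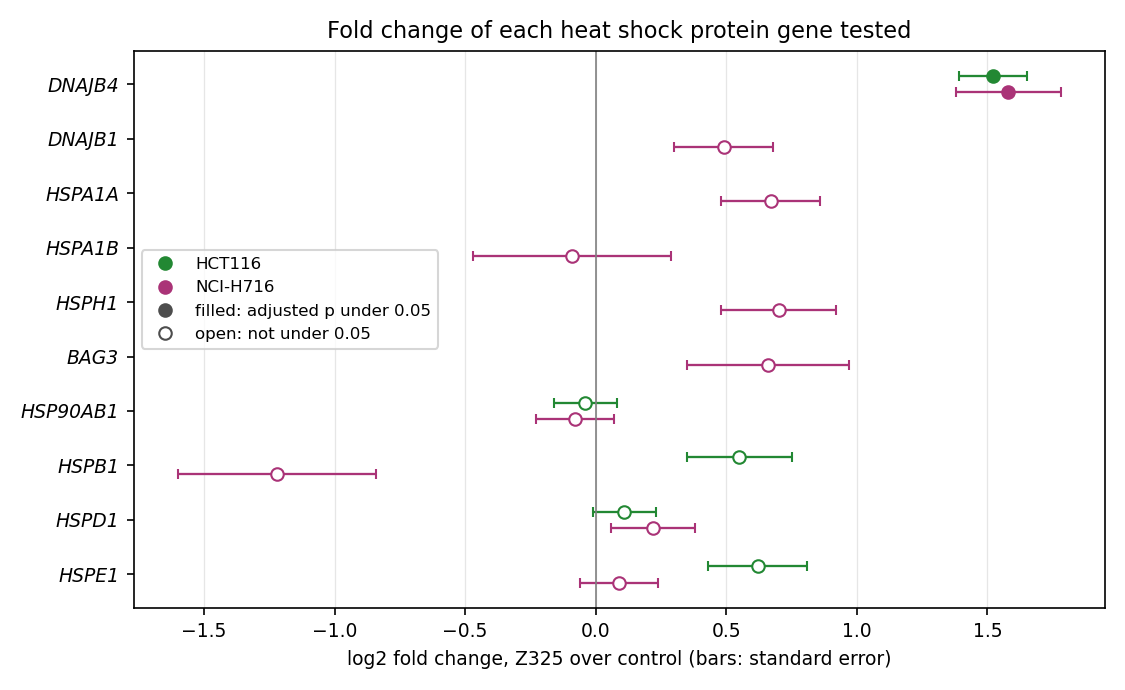
Log2 fold change of Z325 over control for each heat shock protein gene tested, with HCT116 in green, NCI-H716 in purple and bars of 1 standard error. The 2 filled points, both of DNAJB4 at 1.52 and 1.58, mark an edgeR adjusted p under 0.05, and HSPB1 stands at 0.55 in HCT116 and -1.22 in NCI-H716.

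By direction, the log2 fold change was above 0 for 4 of 5 members tested in HCT116, against 48.2% of all genes tested, and for 7 of 10 in NCI-H716, against 49.4%. In HCT116, 4 of 5 had both Z325 libraries above both controls, against 24.8% of all genes tested, and none had both below, against 29% of all genes. In NCI-H716, 7 of 10 members had both Z325 libraries above both controls, against 24.3% of all genes. The other 3 were HSP90AB1 and HSPB1, below in both Z325 libraries against 25.1% of all genes, and HSPA1B, which overlapped. The median log2 fold change of the members was 0.55 in HCT116 and 0.36 in NCI-H716, while that of all genes tested was -0.03 and -0.01. These medians cover the members that passed the filter on low counts, 5 of the 7 listed in HCT116 and all 10 in NCI-H716. Because the members were chosen with earlier results of these data known, the shares and medians describe them and do not test them as a group. The members together took 1.42% and 1.37% of the counts of the HCT116 control libraries and 1.57% and 1.58% of those of the Z325 libraries. The shares in NCI-H716 were 0.395% and 0.442% in control and 0.435% and 0.466% with Z325, which overlapped.

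The difference between the lines was tested directly by an interaction term, in 1 fit of the 8 libraries over 7642 genes. The 5 members tested in both lines gave 0 calls in edgeR and 0 in DESeq2, against 0.0654% of all genes (5 genes) in edgeR. Of these 5, 1 passed at an unadjusted p under 0.05, against 14.3% of all genes. For DNAJB4 the log2 fold change of HCT116 minus that of NCI-H716 was -0.04 (SE 0.23, edgeR adjusted p = 1), so its rises of 1.52 and 1.58 were not told apart. HSPB1 had the widest gap, with a log2 fold change higher in HCT116 than in NCI-H716 by 1.80 (SE 0.53, unadjusted p = 0.00528, edgeR adjusted p = 0.193). The gap was 0.53 for HSPE1 (SE 0.26, edgeR adjusted p = 0.381), -0.10 for HSPD1 (SE 0.19) and 0.05 for HSP90AB1 (SE 0.18). HSPA1A and HSPA1B were left out of this count after their values were seen, since HCT116 had at most 1 count of either in any library.

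Levels of genes within a line are given as FPKM, which divides counts by gene length and library total, so their order depends on the lengths used. The NCI-H716 FPKM values were deposited, whereas those of HCT116 were computed from counts and fixed lengths, so levels are not compared between lines. The fixed lengths count all annotated exon bases, about 7629 for HSPD1, 1823 for HSPE1, 1623 for HSPB1 and 2980 for HSP90AB1. RSEM lengths of these genes in NCI-H716 control replicate 1 were 2215, 557, 793 and 2555 bases. The HCT116 order below holds for the fixed lengths only, and the order with RSEM lengths was not tested. In HCT116 control libraries the order was HSP90AB1 at 2290 and 2150 FPKM, HSPE1 at 1250 and 1050, HSPB1 at 704 and 1050, HSPD1 at 494 and 463 and DNAJB4 at 48.6 and 42.8. HSPE1 and HSPB1 met at 1050 FPKM, and the other neighbours were separate. With Z325, HSPE1 at 2000 and 1410 FPKM overlapped HSP90AB1 at 1980 and 2220, and DNAJB4 stayed lowest at 129 and 126.

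NCI-H716 control libraries put HSPE1 first at 2740 and 3300 FPKM, followed by HSP90AB1 at 768 and 858 and HSPD1 at 375 and 452. HSPB1 at 293 and 152 FPKM overlapped HSPH1 at 140 and 206. Below them stood DNAJB1 at 25.7 and 25.2 FPKM, HSPA1A at 16.6 and 18.1, DNAJB4 at 8.59 and 10.3, HSPA1B at 4.62 and 2.98 and BAG3 at 1.92 and 1.91, each apart from its neighbour. With Z325, HSPH1 at 262 and 343 FPKM stood above HSPB1 at 157 and 105. DNAJB4 at 24.4 and 21.6 FPKM came closer to HSPA1A at 25.8 and 30.4 without overlapping it, and BAG3 at 3.13 and 3.02 lay inside the range of HSPA1B at 4.87 and 2.48.

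The genes whose pattern over the 8 libraries lay closest to each member were found as the smallest root mean square difference in log2 CPM, centred within each line, over 7635 genes. For DNAJB4 these were ME1 (0.185) and GCLM (0.224), against a spread of 0.78 for DNAJB4 itself on the same scale. For HSPB1 they were H2BC12 (0.232) and MPLKIP (0.239), against its own spread of 0.64. HSPE1, with a spread of 0.27, lay closest to CEBPZOS (0.099) and SRFBP1 (0.101). HSPD1 and HSP90AB1 varied by only 0.11 and 0.03, so many genes lay near them. These are descriptions over 8 libraries that share 2 lines.

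Beyond the 10 members, 97 other genes of the heat shock network were set out in 9 lists, also chosen with earlier results known. In HCT116, 40 of them were listed and 33 tested, of which 3 rose and 3 fell, against 2.83% of all genes called higher and 2.94% called lower. In NCI-H716, 88 were tested and edgeR called 0, against 0.403% of all genes higher and 0.099% lower. With an unadjusted p under 0.05, 16 of the 88 lay higher and 5 lay lower, beside 7.59% and 9.27% of all genes tested, and DESeq2 called 2. The median log2 fold change of the network genes was 0.05 in both lines.

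The 3 network genes that rose in HCT116 came from 3 lists. ZFAND2A, a stress-induced zinc finger protein of the proteasome (list of other HSF1-induced genes), stood at 149 and 193 CPM in control and at 460 and 380 CPM in Z325 libraries, a log2 fold change of 1.3 (SE 0.17, edgeR adjusted p = 0.00677). PFDN2, a subunit of the prefoldin complex that feeds the TRiC chaperonin, went from 1120 and 1220 CPM to 2620 and 2090 CPM, a log2 fold change of 1.01 (SE 0.15, edgeR adjusted p = 0.0106). DNAJC19, a J-domain protein of the mitochondrial import motor, went from 316 and 318 CPM to 472 and 470 CPM, a log2 fold change of 0.57 (SE 0.12, edgeR adjusted p = 0.0349). Each of the 3 had both Z325 libraries above both controls, against 24.8% of all genes tested, but they were picked by their call. A long noncoding RNA on the other strand shares 9.16% of the exon bases of ZFAND2A. In NCI-H716 the same genes had log2 fold changes of 0.04, 0.20 and 0.08 and did not pass. In the interaction test over 7642 genes, their log2 fold changes were higher in HCT116 by 1.28, 0.83 and 0.50, with edgeR adjusted p of 0.0823, 0.164 and 0.28, so none passed.

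Those that fell in HCT116 were FKBP5, an HSP90 co-chaperone of steroid receptors, and the TRiC subunits CCT7 and CCT3. FKBP5 stood at 122 and 116 CPM in control and at 60.5 and 70.2 CPM in Z325 libraries, with a log2 fold change of -0.87 (SE 0.17, edgeR adjusted p = 0.0284). The values of CCT7 were 677 and 879 CPM in control and 462 and 509 CPM with Z325, with a log2 fold change of -0.68 (SE 0.16, edgeR adjusted p = 0.0428). Those of CCT3 were 1190 and 1380 CPM in control and 860 and 888 CPM with Z325, with a log2 fold change of -0.56 (SE 0.13, edgeR adjusted p = 0.0440). All 3 had both Z325 libraries below both controls, against 29% of all genes tested, but they were picked by their call. The list of TRiC and prefoldin genes thus held 1 gene that rose and 2 that fell among 8 tested, with a median of -0.13. The number of network genes called in HCT116 turned on the controls, with 0 without control replicate 1 and 1 without control replicate 2, while 7 and 9 were called without Z325 replicates 1 and 2.

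**Figure D4:**
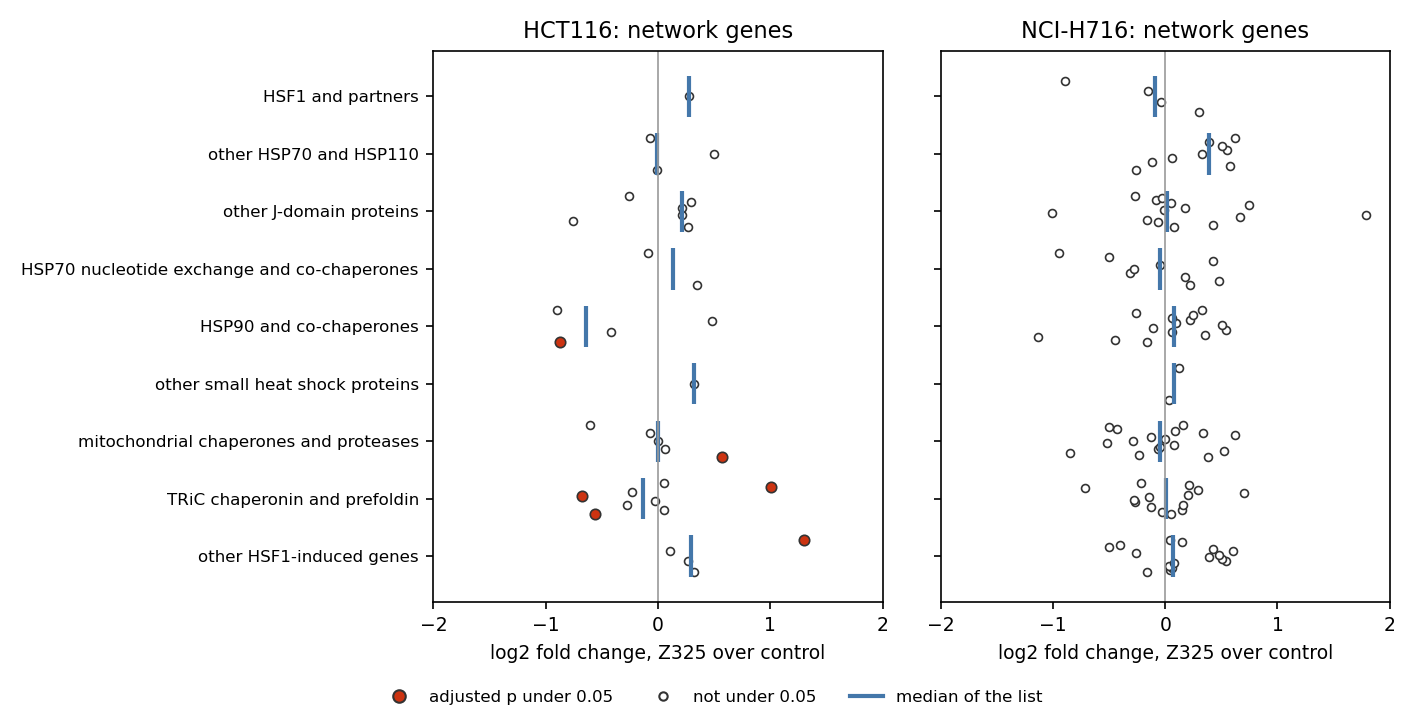
Log2 fold change of Z325 over control for each tested gene of the 9 heat shock network lists, in HCT116 (left) and NCI-H716 (right), with red points for an edgeR adjusted p under 0.05 and a blue line at the median of each list. The 6 red points are all in HCT116, 3 to the right of 0 and 3 to the left, and the list medians in NCI-H716 run from -0.09 to 0.39.

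In the lists with no call, the gene with the smallest p is given. For HCT116 the log2 fold changes were 0.50 for HSPA4L, 0.35 for BAG2, 0.32 for HSPB11, 0.28 for HSF2 and 0.27 for DNAJB14, with edgeR adjusted p from 0.0896 to 0.283. For NCI-H716 they were 0.70 for PFDN4 and 0.62 for HSPA9, the mitochondrial HSP70, with adjusted p of 0.121 and 0.17. HSP90AA1, the stress-inducible HSP90, stood at 3440 and 4100 CPM in control and at 4850 and 5850 CPM in Z325 libraries of NCI-H716, with a log2 fold change of 0.51 (SE 0.17, edgeR adjusted p = 0.200). The values were 1.79 for DNAJB2, 0.48 for BAG2, 0.30 for HSBP1 and 0.12 for HSPB8, and -1.13 for CDC37 and -0.85 for CLPP, none of which passed. DNAJB2 had few counts in NCI-H716, 11 and 11 in control and 35 and 77 in Z325 libraries (SE 0.53). In HCT116 its log2 fold change was -0.76 and did not pass either. The list of other HSP70 and HSP110 genes had the highest median in NCI-H716, 0.39 over 9 genes. Of these, 6 had both Z325 libraries above both controls and 2 had both below, against 24.3% and 25.1% of all genes tested. HSF1 itself stood at 6.66 and 4.27 CPM in control and at 5.96 and 4.77 CPM with Z325 in NCI-H716, which overlapped, and it was named after its values were seen.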

How the data were processed

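RNA of control and Z325 cells of both lines was measured in 8 libraries. For HCT116, the authors deposited raw read counts per gene with positions and lengths. For NCI-H716, the authors deposited RSEM tables with expected counts, TPM and FPKM. TPM was not used here. The submitters' processing notes name Bowtie2 2.5.0, featureCounts and hg38, whereas the study's methods name TrimGalore, STAR, GRCh38 and RSEM. How reads shared between genes were counted is not given in the sources used here. The HCT116 table holds 4 broken lines, which were left out, and at least 99.84% of GENCODE v44 genes of chromosomes 1 to 8.

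Expected counts were rounded to whole numbers, and 62666 NCI-H716 identifiers were paired with symbols. Each line was fitted in edgeR 4.0.16 (R 4.3.3) with TMM, filterByExpr and its quasi-likelihood test, and with no block for replicates. HCT116 FPKM was computed from the counts. The lines were compared by an interaction term. Steps were tested on simulated data. All 10 members are described. Of each list, the genes called are named, or else the one with the smallest p, and further genes were named after their values were seen. Members and lists were chosen with earlier results of these data known. Alternatives were DESeq2 1.42.0, other scaling and filters, limma 3.58.1 on log2 FPKM with a pseudocount of 1 or 0.1, a replicate block, 1 fit of all libraries, adding copies of a gene, and leaving out each library. Thinning to the shallowest library was chosen after seeing the data. Tables were handled in Python 3.11.15 with pandas 2.3.3.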

Additional observations from a re-analysis of the deposited data

Results flagged for a closer look

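HSPB1 was marked because its Z325 libraries stood on opposite sides of the controls in the 2 lines, above both controls in HCT116 (log2 fold change 0.55) and below both in NCI-H716 (-1.22). The difference of 1.80 (SE 0.53, HCT116 minus NCI-H716) had an unadjusted p of 0.00528 in edgeR's interaction test and an adjusted p of 0.193 over 7642 genes, so it did not pass. Leaving out single libraries gave differences from 1.11 to 2.42, all in the same direction and none past the adjusted threshold. The 2 tables came from different quantification, and its part in the difference was not tested.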

How the results depend on the processing

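DNAJB4 passed in HCT116 under every alternative run. In NCI-H716 it passed in every count model and fell short in limma on FPKM (1.20 with a pseudocount of 1, with or without a minimum mean FPKM of 1, and 1.27 with a pseudocount of 0.1). The cause was not tested. Without a library, 1 group holds a lone sample that is assumed to vary like the others.

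Members called in HCT116 were 3 with DESeq2, 2 with no filter and 2 after thinning, against 1, and 1 to 3 without a library. In NCI-H716 they were 3 with no filter and 0 in all 3 limma fits, against 1, and 1 to 4 without a library. All genes called in HCT116 were 375, against 759 with DESeq2, 615 with at least 10 counts in every library, 683 with no filter, 568 after thinning and 47, 37 and 87 in the limma fits, and 23 to 1076 without a library. For NCI-H716 they were 71, against 364, 777 with no filter, 6, 6 and 10 in the limma fits, 19 in 1 fit of all libraries, 36 on the genes of the HCT116 table and 38 to 1386 without a library. Network genes called were 1, 0 and 2 in the limma fits of HCT116 (0 to 9 without a library), and 2 with DESeq2 and 8 with no filter in NCI-H716 (0 to 14).

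The labels do not say that replicate numbers pair libraries, and no pairing was assumed. The replicate differences of control and of Z325 correlated at -0.031 in HCT116 over 6491 genes and at 0.198 in NCI-H716 over 14142 genes. These values do not settle whether the libraries were paired, and the NCI-H716 calls turned on this choice. With a replicate block, NCI-H716 gave 2397 of 14142 genes, against 71 with no block, so calls rose over all genes tested. Those called included 5 of 10 members (DNAJB4, DNAJB1, HSPA1A, HSPB1 and HSPH1) and 22 of 88 network genes. HCT116 gave 381 genes with the block. Between the lines, 1 member, HSPB1 (1.82), differed with the block. With no filter 1 member also differed, HSPB1 (1.68).

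The sign turned only for values near 0. HSPA1B in NCI-H716 ran from -0.66 to 0.36, and was 0.30 without control replicate 1. The difference between lines of DNAJB4 was 0.05 with DESeq2, 0.04 with at least 10 counts, 0.26, 0.21 and 0.26 in limma and -0.22 to 0.05 without a library. That of HSP90AB1 was -0.07 with no filter, -0.03 in limma and -0.03 to 0.07 without a library, with 0.00 without NCI-H716 Z325 replicate 1. Of the values for single genes over all alternatives, 271 kept direction and side of the threshold and 17 changed sign. A further 19 passed only in the alternative, and 3 passed only in the main fit.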
